A study of Mus musculus with 4 samples.

Results

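E2A peaks were described at the loci of Sox4, Sox5, Sox12 and Sox13 in thymocytes of mice without Id2 and Id3. A peak was a member when its midpoint lay in the gene body or within 200 kb of it on mm9, a rule that used position only. It gave 41 of the 17532 peaks called in DP cells and 5 of the 1516 called in iNKT cells. E2A is the E protein encoded by Tcf3, and its binding was measured by ChIP-Seq, in which crosslinked DNA is precipitated with an antibody and sequenced. All libraries came from L-DKO mice, which carry floxed Id2 and Id3 (Id2 f/f Id3 f/f LckCre+) and lose both genes in T cells through a Cre driven by Lck. The mice were 3 to 5 weeks old and were C57BL/6 or hybrids of C57BL/6 with 129. DP cells were sorted as CD1dTet- CD4+ CD8+ and iNKT cells as CD1dTet+ TCRβ+, and material of 3 to 4 mice was pooled for each sample. Each cell type has 1 library for E2A and 1 for input, so no value below has a replicate error and no test between DP and iNKT cells was made. Both cell types carried the deletion, and E2A binding in the presence of Id proteins is not analysed here. The lists hold no expression values, so the sorted cell types could not be checked against marker genes.

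Sox proteins bind DNA in the minor groove through an HMG box, which they share with Tcf7 and Lef1. Sox4 and Sox12 belong to the SoxC group of transcriptional activators, while Sox5 and Sox13 belong to the SoxD group, whose members lack an activation domain of their own and act through partners. In the thymus, Sox4 is expressed from early progenitors onward, and Sox4 and Sox13 are known for their part in the programming of innate-like γδ T cells. E proteins bind E-boxes as dimers, and Id proteins prevent this by dimerising with them. The E2A core of the E-box is CAGGTG, whose reverse complement is CACCTG.

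Sequences at selected peaks are given first, on the plus strand of mm9, with every E2A core and every CAGCTG in capitals. The iNKT peak of Sox4 that overlapped no DP peak held neither form, and its sequence is not printed. Each printed sequence holds, in its 121 bases, the CAGGTG site nearest the midpoint of its peak. At Sox12, where the peak had no CAGGTG, it holds CAGCTG. The first 4 are the positions called in both cell types, with the iNKT peak used for the midpoint.
Sox4, 6.09 kb upstream of the start site, chr13:29051609-29051729: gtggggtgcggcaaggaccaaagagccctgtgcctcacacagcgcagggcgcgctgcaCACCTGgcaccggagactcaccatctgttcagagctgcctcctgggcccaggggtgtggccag
Sox4, 38.6 kb upstream, chr13:29084152-29084272: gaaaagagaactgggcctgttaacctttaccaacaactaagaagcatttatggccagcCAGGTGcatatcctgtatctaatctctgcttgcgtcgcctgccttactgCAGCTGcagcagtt
Sox5, intron, 827 kb downstream of the start site, chr6:143903071-143903191: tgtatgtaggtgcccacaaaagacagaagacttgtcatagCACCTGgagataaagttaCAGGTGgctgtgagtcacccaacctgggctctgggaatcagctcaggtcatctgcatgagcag
Sox5, intron, 108 kb downstream, chr6:144622554-144622674: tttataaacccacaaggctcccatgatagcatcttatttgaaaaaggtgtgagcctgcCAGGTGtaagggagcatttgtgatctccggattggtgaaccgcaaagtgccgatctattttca
The other 5 are from DP peaks that no iNKT peak overlapped, at the second Sox4 peak of the highest score, over the Sox4 start site, at the highest peaks of Sox12 and Sox13, and in the Sox13 gene.
Sox4, 21.4 kb upstream, chr13:29066950-29067070: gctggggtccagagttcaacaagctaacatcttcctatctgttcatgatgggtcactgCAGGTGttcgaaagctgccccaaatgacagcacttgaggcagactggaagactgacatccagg
Sox4, 0.615 kb upstream, in the peak over the start site, chr13:29046137-29046257: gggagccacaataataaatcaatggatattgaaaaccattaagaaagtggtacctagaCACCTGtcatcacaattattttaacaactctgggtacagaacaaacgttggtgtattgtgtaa
Sox12, 25.7 kb downstream, chr2:152198007-152198127: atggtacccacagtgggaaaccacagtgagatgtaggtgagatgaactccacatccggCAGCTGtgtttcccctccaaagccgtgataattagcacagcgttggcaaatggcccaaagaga
Sox13, 118 kb upstream, chr1:135438809-135438929: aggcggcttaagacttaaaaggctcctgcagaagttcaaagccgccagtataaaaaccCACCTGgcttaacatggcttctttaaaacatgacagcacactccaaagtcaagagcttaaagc
Sox13, intron, 24.2 kb downstream, chr1:135296674-135296794: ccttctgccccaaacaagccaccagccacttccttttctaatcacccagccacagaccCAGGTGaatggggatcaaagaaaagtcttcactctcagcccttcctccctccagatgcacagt
None of these windows overlaps an annotated exon of a protein-coding gene.

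The deposited score of a peak is the negative log10 of its MACS p-value against input, multiplied by 10. A score of 50 was the lowest in both lists. Peaks were ranked by score within their own list, since scores grow with depth, the depth is unknown, and scores therefore cannot be compared as amounts between lists. The score 3100 was shared by 258 DP peaks, which have no order among themselves. Over all 22278 protein-coding genes, 75.2% had a DP peak in the body or within 200 kb and 27.8% had an iNKT peak. DP peaks were present at each of the 4 Sox genes, and iNKT peaks at 2 of them, Sox4 and Sox5. With 4 genes these shares are a description only. Of the 41 DP midpoints, 28 were intergenic and 8 were in introns of Sox5. An exon of Sox4 held 1, an intron of Sox13 1, introns of Plekha6 2 and an intron of Nrsn2 1. By distance, 5 lay within 10 kb of the outermost start site of one of the 4 genes, all at Sox4. This second count includes intergenic midpoints.

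**Figure D1:**
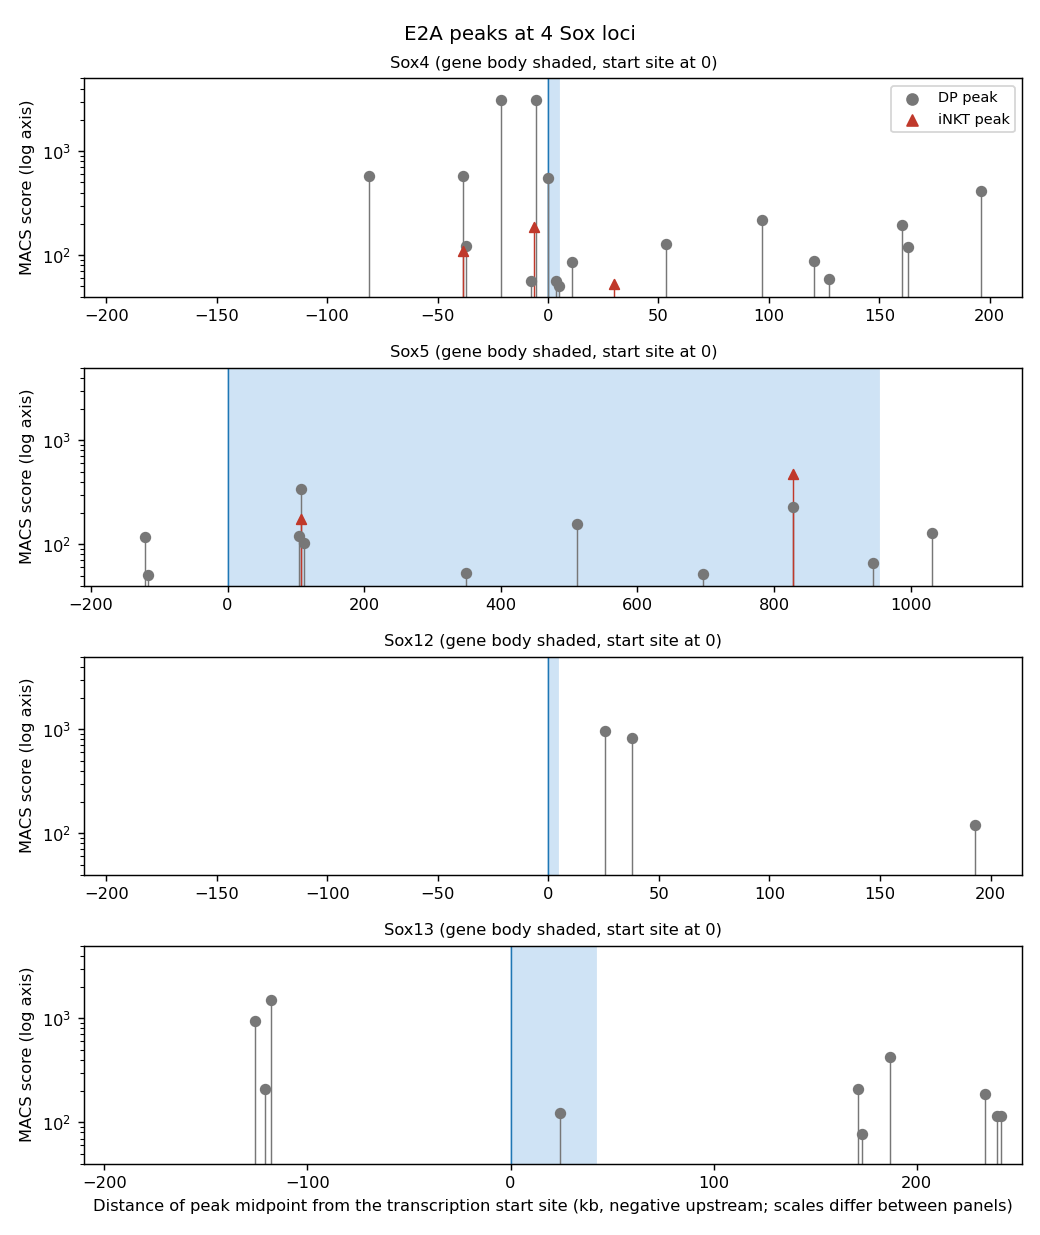
Each panel plots the peaks of 1 Sox locus by the distance of the midpoint from the transcription start site (kb, negative upstream) and by MACS score on a log axis, with DP peaks as grey circles, iNKT peaks as red triangles and the gene body shaded. The highest DP peaks of Sox4 lie just upstream of the gene, all iNKT peaks lie at Sox4 and Sox5, and the peaks of Sox12 and most of those of Sox13 lie away from the gene.

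In windows of 200 kb Sox4 had 17 DP and 3 iNKT peaks, the most of the 4 genes. With 30 kb upstream and 5 kb downstream it had 6 and 1, fewer than the 8 and 2 of Sox5. With a score of at least 100 it had 11 and 2, against 7 and 2 at Sox5. The gene occupies chr13:29040788-29045582 on the minus strand, and no other protein-coding gene starts within 200 kb of it. Of all protein-coding genes, 6.49% had at least 17 DP peaks by the same rule and 1.89% had at least 3 iNKT peaks. Over all these genes the median was 3 DP peaks and 0 iNKT peaks.

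The DP peaks with high scores at Sox4 lay upstream. The 7 upstream DP peaks had scores from 56.4 to 3100 with a median of 571, and 5 of them scored at least 500. The 9 DP peaks past the gene end had scores from 50.3 to 410 with a median of 119, and the peak in the gene, in its exon, scored 55.9. From the start site outward the upstream scores were 556, 3100, 56.4, 3100, 122, 571 and 574. The 2 peaks of score 3100 ran from 29049365 to 29052576, with a midpoint 5.39 kb upstream of the start site, and from 29066116 to 29067760, 21.4 kb upstream. Having 2 or more DP peaks of score 3100 or higher was found at 1.39% of protein-coding genes. The start site itself was covered by the DP peak at chr13:29045025-29046447, of rank 3040 of 17532. The iNKT list had no peak over the start site, and its nearest peak had its midpoint 6.12 kb away.

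That nearest iNKT peak, from 29051079 to 29052331, lay wholly inside the 3212 bp DP peak of score 3100 and covered 39.0% of it. Its score was 186 and its rank 227 of 1516. Its CACCTG at 29051667 to 29051672, in the first sequence above, was 36 bp from the iNKT midpoint but 699 bp from the DP midpoint. The 200 bp around that DP midpoint held no CAGGTG on either strand. The second shared position lay further upstream, at chr13:29083472-29084752, where the iNKT score was 110 and the rank 485. It covered all of a DP peak with a score of 571 and rank 2967, and in the second sequence CAGGTG and CAGCTG stand close together. The DP peak at 21.4 kb upstream, with the same score as the first, had no iNKT peak over it, and the nearest iNKT peak was 13.8 kb away.

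The third iNKT peak of Sox4, from 29015502 to 29016144, lay past the gene end and 29.8 kb from the start site. It was close to the calling threshold, with a score of 52.7 and rank 1368 of 1516. It overlapped no DP peak, the nearest being 18.3 kb away, and it held neither CAGGTG nor CAGCTG. It was the only iNKT peak at the 4 genes without an E-box of these forms.

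Sox5 had 11 DP peaks, 7 of them with a score of at least 100, and 2 iNKT peaks, both in its introns. Of protein-coding genes, 17.6% had at least as many DP peaks and 7.24% at least as many iNKT peaks. The gene spans 954 kb at chr6:143776945-144730497, also on the minus strand, and the annotation gives it 12 transcript start positions. Its window of 1354 kb is wide, and its 8.13 DP peaks per Mb were near the median of 7.47 over all gene windows, against 42.0 at Sox4. In DP cells 8 of the 11 peaks had their midpoints in the gene, all in introns, and 20.4% of protein-coding genes had a DP peak in the body. For iNKT peaks this share was 3.00%. These shares are over genes of any length, and Sox5 is long. Sox5 had 1.48 iNKT peaks per Mb of its window, against 7.41 at Sox4.

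Scores of DP peaks at Sox5 ran from 50.9 to 341 with a median of 116, against a median of 141 over the DP list. A highest DP score of at least 341 was found at 50.1% of protein-coding genes. The nearest DP peak to the outermost start site was 104 kb away, so no peak of either list covered that promoter. The peak of 341, at chr6:144622263-144623072, ranked 4638, and an iNKT peak at chr6:144622101-144623107 covered it with a score of 174 and rank 253. The only CAGGTG of that iNKT peak was 10 bp from its midpoint. DP peaks with scores of 102 and 119 flanked this position, 2.30 and 2.66 kb from the iNKT peak, and no iNKT peak overlapped them.

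The other iNKT peak of Sox5 had the highest score of the 5 iNKT peaks at these genes. It ran from 143902469 to 143903837 with a score of 476 and rank 53 of 1516. Its midpoint was 827 kb from the outermost start site and 7.53 kb upstream of the nearest start of a shorter Sox5 transcript. The DP peak under it, at chr6:143902489-143903482, scored 228 and rank 6255 of 17532. The iNKT peak held 3 CAGGTG sites, and 2 of them stand in the printed sequence, on opposite strands. By distance to outermost start sites, the nearest gene to this peak was Etnk1, at 787 kb, although the peak lies inside Sox5.

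Sox13 had 10 DP peaks and no iNKT peak, and 1 of the 10 lay in the gene. At least 10 DP peaks were found at 20.8% of protein-coding genes. The gene occupies chr1:135278880-135320954 on the minus strand. Its intronic peak, at chr1:135296390-135297249, scored 122 and ranked 9585. It lay 24.1 kb downstream of the outermost start site and 6.97 kb upstream of the nearest start of a shorter transcript, and its CAGGTG was 85 bp from the midpoint. It was the only one of the 10 for which Sox13 had the nearest start site.

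The 2 DP peaks with the highest scores around Sox13 lay in a group upstream. The highest, at chr1:135438000-135439556, scored 1511 and ranked 976, and its midpoint was 118 kb from Sox13 and 68.1 kb from Snrpe, a gene for a spliceosome protein. A DP peak of at least this score was found at 19.5% of protein-coding genes. Beside it were peaks with scores of 208 and 937, at 121 and 126 kb from Sox13. The other 6 DP peaks lay past the Sox13 gene end, from 171 to 242 kb from its start site, with scores from 76.6 to 424. The start sites of Plekha6 or Ppp1r15b were nearest to them, and 2 lay in an intron of Plekha6. The nearest iNKT peak to the Sox13 gene body was 370 kb away on the downstream side, nearest to Mdm4, with a score of 62.8.

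Sox12 had 3 DP peaks and no iNKT peak, and none of the 3 lay in the gene or had Sox12 as the nearest start site. The gene is short, at chr2:152219347-152223782 on the minus strand, and 16 other protein-coding genes start in its window. The highest DP peak, at chr2:152197492-152198515, scored 957 and ranked 1757. It lay in an intron of Nrsn2, 4.37 kb from the start site of that gene and 25.8 kb from Sox12. The next, at chr2:152185086-152187212, scored 821 and held 5 CAGGTG sites, while the highest held none and had CAGCTG. The third had a score of 121 and was nearest to Csnk2a1, a casein kinase gene. At least 3 DP peaks were found at 57.3% of protein-coding genes. The nearest iNKT peak to Sox12 was 938 kb away.

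Across the 4 genes, 4 of the 41 DP peaks overlapped an iNKT peak by at least 1 bp, or 9.76% (95% Wilson interval 3.86 to 22.5, for counting error only). Over the whole DP list the share was 5.99%. In the other direction, 4 of 5 iNKT peaks lay over a DP peak, against 69.3% of the whole iNKT list. Both shares over the lists lie inside the intervals of the Sox loci, 37.6 to 96.4 for iNKT peaks. Among DP peaks with a score of at least 500, 2 of 9 at the Sox genes overlapped an iNKT peak, and over the list 20.8% did. Such scores were found at 9 of the 41 DP peaks and at 19.1% of all DP peaks. Between 100 and 500, the band of both shared Sox5 positions, 2 of 21 did, or 9.52% (2.65 to 28.9), against 3.58% over the list. None of the 11 DP peaks below 100 overlapped an iNKT peak, against 1.22% over the list. Having at least 2 iNKT peaks that overlap a DP peak, as Sox4 and Sox5 each did, was found at 5.32% of protein-coding genes of any length.

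For the shared positions of Sox4 and Sox5, rank was expressed as a percentage of the list, with 0 for the highest score. At Sox4 the pairs stood at 15.0% of the iNKT list and 0.154% of the DP list, the latter being the first of the 258 tied places, and at 32.0% and 16.9%. At Sox5 they stood at 3.50% of the iNKT list and 35.7% of the DP list, and at 16.7% and 26.5%. Over all 1050 pairs the medians were 40.3% of the iNKT list and 8.99% of the DP list, the longer of the lists, so a higher standing of the DP peak, as at Sox4, was the usual case. It stood lower, as at Sox5, in 17.0%. The DP rank minus the iNKT rank was at least as large as in the first and second Sox5 pairs in 47 and 126 of the 1050 pairs, and as in the first and second Sox4 pairs, where it was negative, in 423 and 426. These are ranks from 1 library each, and the difference was not tested.

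**Figure D2:**
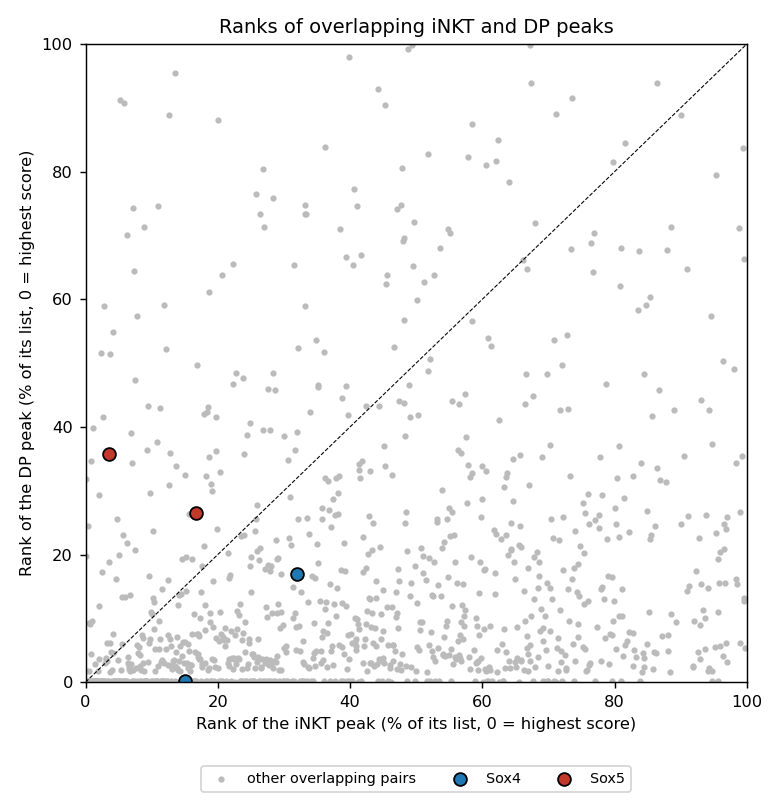
Each point is an iNKT peak and the DP peak of the highest score that it overlaps, placed by the rank of each in its own list as a percentage (0 is the highest score), and the dashed line marks equal ranks. The Sox4 pairs lie below the line and the Sox5 pairs above it, where 17.0% of the 1050 pairs lie.

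E-boxes were present at the Sox loci about as often as in the lists. Both strands of the 200 bp around each midpoint were searched for CAGGTG, the midpoint standing in for a summit, which the lists do not give. It was found at 18 of the 41 DP midpoints, which is 43.9% (29.9 to 59.0), and over the whole DP list the share was also 43.9%. In flanks of the same length, 2 kb to either side, it was in 19.5% (12.4 to 29.4). By gene it was at 6 of 17 DP midpoints for Sox4, 7 of 11 for Sox5, 5 of 10 for Sox13 and 0 of 3 for Sox12. At iNKT midpoints it was found in 3 of 5, against 52.8% of the iNKT list. CAGCTG was at 22.0% of the DP midpoints and at 29.0% over the list. In the whole peak, 32 of the 41 DP peaks held CAGGTG, against 79.0% of the list, and 3 held neither form, against 1419 of the 17532 in the list.

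Cores of other factors were searched in the same way. TCAAAG, the core of Tcf7 and Lef1, was at 13 of the 41 DP midpoints, or 31.7% (19.6 to 47.0), against 17.4% over the list. In the flanks of the Sox loci it was in 17.1% (10.5 to 26.6), an interval that overlaps that of the midpoints. ACAAAG, a core of Sox proteins that differs from TCAAAG in the first base only, was at 26.8% (15.7 to 41.9), against 16.9% over the list. The other Sox core AACAAT was at 4.88% against 6.71%, and the Runx1 core ACCACA at 22.0% against 23.8%. Of the 6 cores compared at DP midpoints, TCAAAG was the only one whose interval at the Sox loci left out the share of the list, and no test was made. Neither the number of intervals nor base content was allowed for. Mean GC at DP midpoints was 49.1% at the Sox loci and 51.3% over the list. In the whole peak TCAAAG was in 28 of the 41 DP peaks, or 68.3%, against 55.6% of the list. At the iNKT midpoints it was found in 0 of 5, against 19.1% of the iNKT list. These letters show no binding by the factors named.

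**Figure D3:**
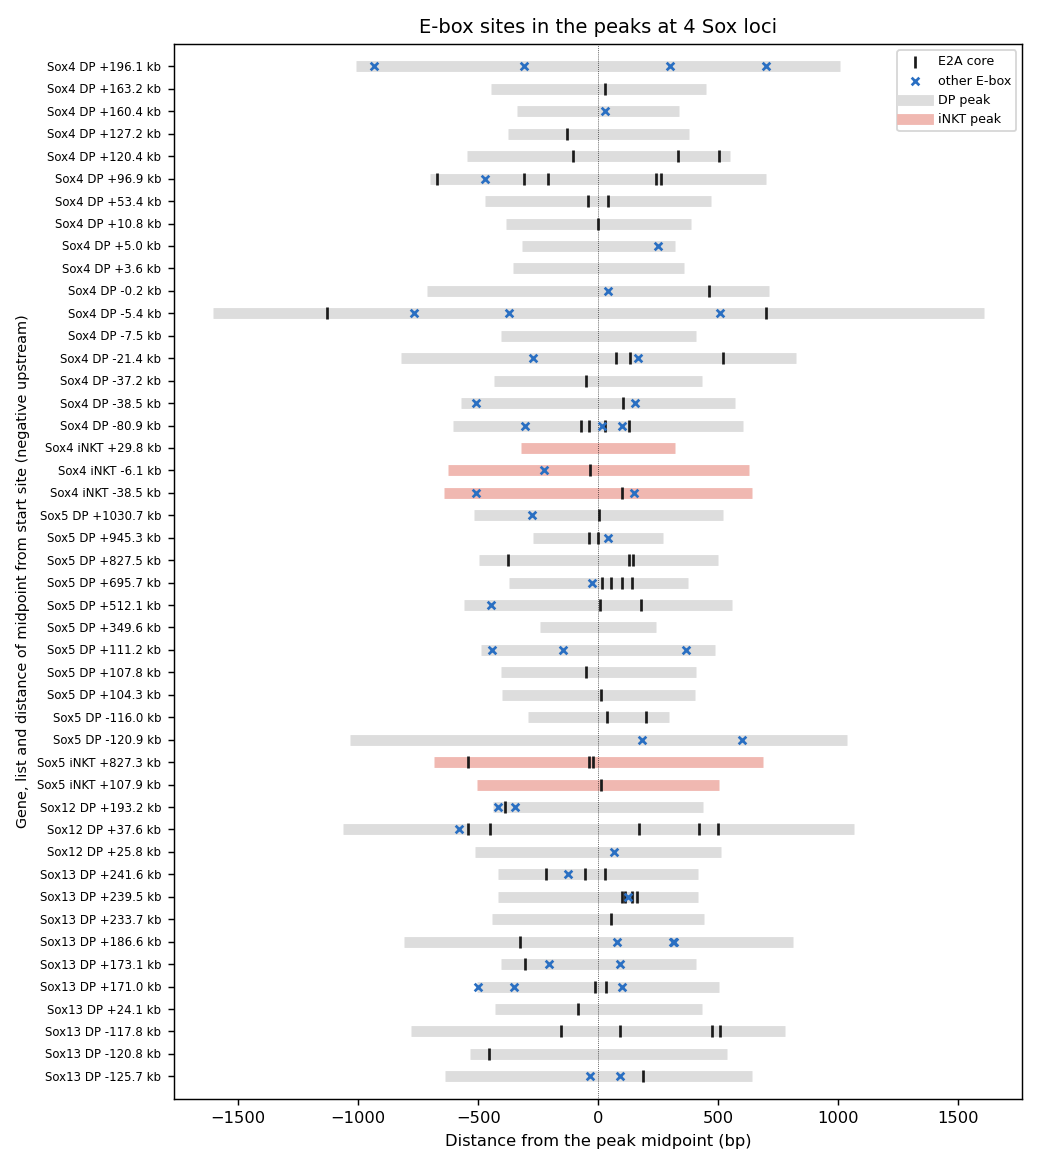
Each row is a peak at 1 of the 4 Sox genes, labelled with the gene, the list and the distance of its midpoint from the start site, drawn to scale from the peak midpoint (bp), with the E2A core as black ticks and the other E-box as blue crosses. Grey bars are DP peaks and red bars are iNKT peaks, and 1 of the 5 iNKT peaks, at Sox4, has no mark.

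All 46 peaks at the Sox genes lay in sequence that the assembly mostly holds once. The median number of copies of their words of 31 bases was 1 for each peak, and the lowest share of words found once was 71.3%, in the DP peak near Csnk2a1. The iNKT peak of Sox4 without an E-box had 89.4%.

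Peaks around other Sox genes never had the Sox gene as the nearest start site. Of 15 other Sox genes listed, 14 are in the annotation, 7 had a DP peak in the body or within 200 kb and 1 had an iNKT peak. Over all protein-coding genes these shares were 75.2% and 27.8%. Their median was 1 DP peak, against 10.5 for the 4 genes described here and 3 over all protein-coding genes. Sox10, a neural crest factor, had 14 DP peaks, more than Sox5, Sox12 or Sox13. Sox6, a SoxD gene like Sox5 and Sox13, had 8, and 1 of these lay inside its 567 kb gene. Sox8 and Sox15 had 5 each. Sox8 had the iNKT peak, with a score of 74.5. At Sox4, Sox5, Sox12 and Sox13, 17, 8, 0 and 1 DP peaks had the Sox gene as the nearest start site. The windows of Sox4 and Sox5 hold no start site of another protein-coding gene.

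Among 8 genes of other HMG-box factors or of the innate-like γδ programme, all had a DP peak and 5 had an iNKT peak, against 75.2% and 27.8% of protein-coding genes. Tcf7 had 25 DP peaks, Lef1 24, and Tox and Etv5 10 each. Etv5, an ETS factor, had 1 iNKT peak with a score of 308 and rank 114, and Egr3, which is induced by TCR signals, had 2 with scores of up to 137. Tcf7 had 1 iNKT peak with a score of 432 and rank 65, above each iNKT peak of Sox4. Lef1 had 1 with a score of 144, and Zbtb16, which encodes PLZF, had 1 with a score of 54.1. Sox4, with 17, stood below Tcf7 and Lef1 in DP peaks by this window. With only peaks for which the gene had the nearest start site, Sox4 had 17, Tcf7 14 and Lef1 22. Counts for genes with long bodies come from wider windows.

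**Figure D4:**
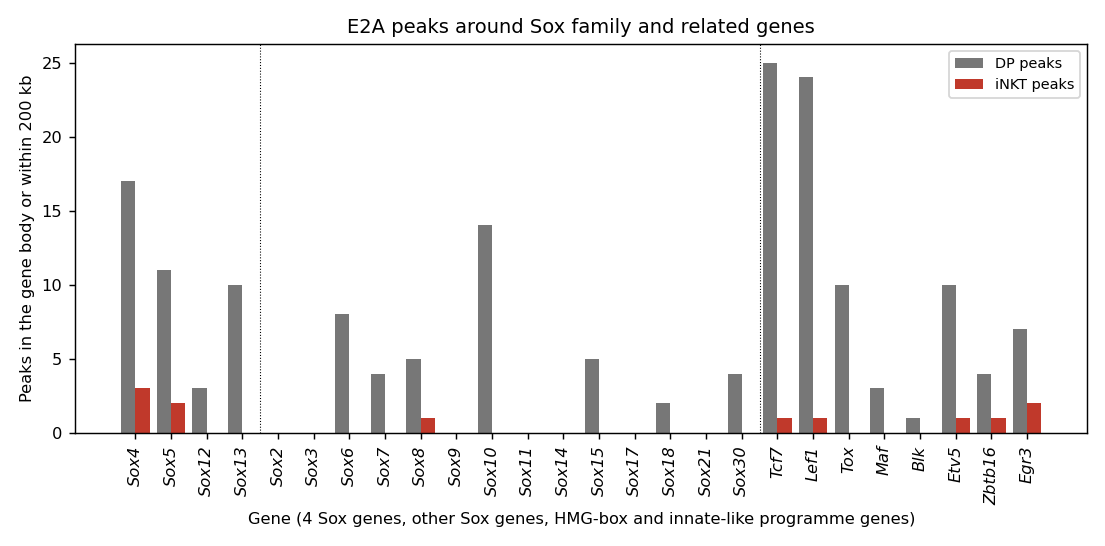
Bars give the number of DP peaks (grey) and iNKT peaks (red) in the gene body or within 200 kb for the 4 Sox genes, for 14 other Sox genes and for 8 HMG-box and innate-like programme genes, separated by dotted lines. Sox4 has 17 DP and 3 iNKT peaks, and 7 of the other Sox genes have no peak of either kind.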

How the data were processed

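E2A ChIP-Seq peak lists of L-DKO DP and iNKT cells were used, 1 list each. By the study's methods, Bowtie 1.1.2 placed reads on mm9 with multiply mapping reads left out, and MACS 1.4.2 with default parameters called the peaks. For each peak the authors deposited its position and a score, the MACS p-value as its negative log10 multiplied by 10. The reads and inputs are not analysed here, so depth is unknown and intervals cover counting error only.

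Genes came from GENCODE M1 on NCBIM37, the assembly of mm9, on chromosomes 1 to 19 and X. Records nested in a longer record of the same name were dropped. Peaks were assigned by midpoint and printed positions count from 1. Shares have 95% Wilson intervals. Alternatives were the window, the minimum score, the overlap, the assignment and the motif window. The genes, lists and rules were chosen with earlier results of these data known. The text names each member's peak nearest its start, its highest peak per list, its iNKT peaks and the DP peaks under them, and of the other lists the genes with an iNKT peak or the most DP peaks. Any other peak or gene in the text was picked with its values in view. Functions were tested on simulated data and passed 10 of 10 checks. Software was samtools 1.23.1 and Python 3.11.15 with pysam 0.24.0, pandas 2.3.3, numpy 2.4.6, numba 0.67.0, scipy 1.17.1 and matplotlib 3.10.9.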

Additional observations from a re-analysis of the deposited data

How the results depend on the processing

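Alternatives gave 58 values of 14 results, and 44 stayed within 1.5 times a count or within the counting interval. With 30 kb upstream and 5 kb downstream of the gene, DP peaks fell to 6 at Sox4, 0 at Sox12 and 1 at Sox13, and Sox4 had 1 iNKT peak, while Sox5 had 8 DP and 2 iNKT peaks and so exceeded Sox4 in both lists. With a window of 100 kb, Sox13 had 1 DP peak. With only peaks for which the Sox gene had the nearest start site, Sox12 had 0 and Sox13 1 DP peak, and Sox5 had 1 iNKT peak. With a score of at least 100, DP peaks were 11 at Sox4 and 7 at Sox5, both genes had 2 iNKT peaks, the share of iNKT peaks that overlapped DP peaks was 100%, and 0 other Sox genes had an iNKT peak. CAGGTG was at 29.3% of DP midpoints in 100 bp and in 78.0% of whole DP peaks. These changes follow from fewer bases searched or fewer peaks kept, or from more bases in the whole peak. No paired analysis was possible because each cell type has 1 E2A library. With 1 library per cell type the lack of iNKT peaks at Sox12 and Sox13 has no error and cannot be told apart from a lower depth, which is unknown.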
